A study of Mus musculus with 6 samples.

Results

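Connexins and pannexins are the 2 gene families that build the large channels joining one cell to the next or opening a cell to its surroundings. Described here are 8 genes of these families, *Gja1*, *Gja4*, *Gjb2*, *Gjb5*, *Gjb6*, *Gjc1*, *Panx1* and *Panx3*, among 22911 genes named on a mouse expression array, beside 12 others of the same families. They were listed because *Gjb5* turns on in the mutant cells. The comparison of mutant with control cells thus chose them, and their values in it are given as a description, with no test.

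Connexin subunits assemble into a hemichannel in the cell membrane, and hemichannels of neighboring cells dock to form a gap junction that passes ions, second messengers and small metabolites. Pannexins form channels in a single membrane and are best known for the release of ATP, which acts on purinergic receptors. In the brain, astrocytes are coupled mainly by *Gja1* (connexin Cx43) and *Gjb6* (Cx30), with *Gjb2* (Cx26) in smaller amount, and cells that make myelin use *Gjb1* (Cx32) and *Gjc3* (Cx29), among others. *Gjb5* is known best from skin and other epithelia, and *Gja4* and *Gjc1* from blood vessels and heart.

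RNA was measured in OS3 cells, a glial line from the brain of newborn C3H mice (C3H/HeN in the methods) that was immortalized with SV40. WT cells (OS3-vector, *n* = 3) carried the empty vector, and IG27 cells (OS3-H3F3A_K27M, *n* = 3) carried a plasmid for histone H3.3 in which lysine 27 is replaced by methionine, H3.3K27M. All samples were male cells grown for 2 days in the same serum-containing medium, and each was hybridized to 1 single-color array. Transfected lines were made by drug selection, and the sources used here do not say whether IG27 cells are 1 clone. The effect of the histone and the difference between the lines cannot be told apart, and p-values measure only the spread between samples of the same line.

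Of the 56605 probes that are not controls, 58.8% to 61.2% were well above background on each complete array, by the flag of the scanning software. IG27 replicate 2 lacks this flag, since its deposited scanner output is incomplete, and its values came from the deposited table. Values below are log2 intensity minus the 75th percentile of each array, so that 0 is a bright probe. The lowest value well above background was -6.01 to -5.53 on WT arrays and -5.37 and -5.33 on the complete IG27 arrays. The level of one probe cannot be set against that of another. The Pearson correlation of arrays was 0.994 to 0.997 within groups and 0.902 to 0.905 between them. The background was high: limma called 70.5% of 14898 genes at an adjusted p under 0.05, 30.5% as higher and 40.0% as lower in IG27 cells, and for 75.7% the groups did not overlap. The gene of the expressed histone, *H3f3a*, gave 6.70 to 6.96 in WT and 6.52 to 6.61 in IG27 samples. The files do not say whether its probes read the plasmid, so it checks no label.

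Of the 8 genes, 4 could be tested, and 2 of these were called higher and 1 lower in IG27 cells; since the contrast chose the genes, nothing is read from these counts. *Gjc1* (Cx45) was higher in IG27 cells, *Panx1* lower, and *Gjb5* (Cx31.1) passed the background level only in IG27 cells, where it stayed dim. *Gja1*, *Gjb2*, *Gjb6* and *Panx3*, which include the astrocyte connexins, were not well above background in either group.

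**Figure D1:**
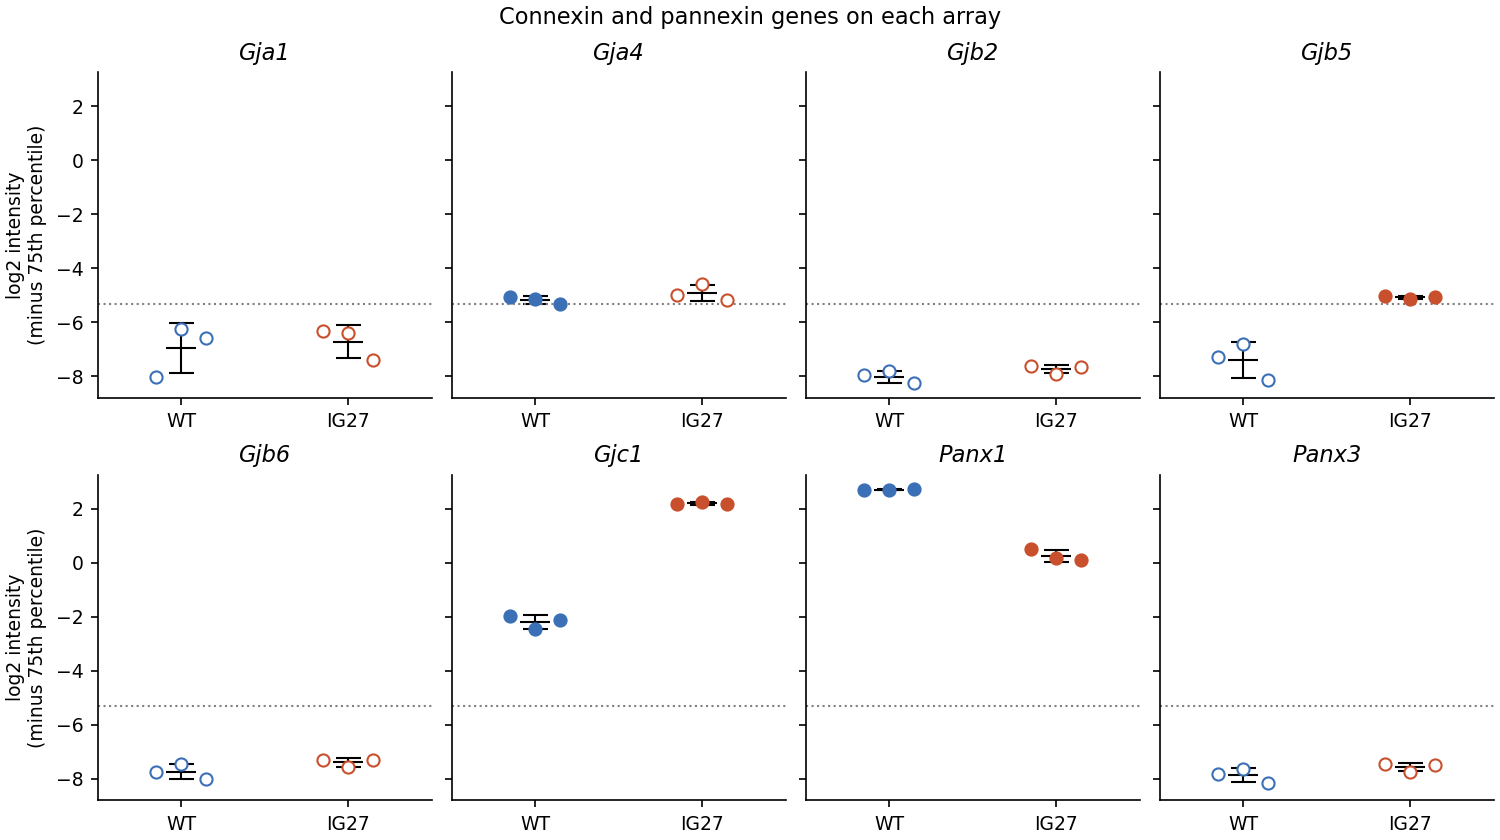
Log2 intensity minus the 75th percentile of the array (vertical axis) of the 8 genes in WT replicates 1 to 3 (blue, left to right) and IG27 replicates 1 to 3 (orange). Points are filled where the probe was well above background on every array of the group that carries the flag; black lines give the mean and SD (*n* = 3), and the dotted line, at -5.33, the highest of the arrays' lowest values well above background. *Gjc1* and *Panx1* lie far above that line in both groups and do not overlap between them, *Gjb5* crosses it only in IG27 samples, and 4 genes stay below it.

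*Gjc1*, on chromosome 11, encodes the connexin of vascular muscle and of the conduction system of the heart. Its probe read -1.99, -2.48 and -2.11 in WT replicates 1 to 3 and 2.17, 2.25 and 2.16 in IG27 replicates 1 to 3. Every IG27 sample was above every WT sample, by far more than the spread within either group. On the scanner's scale the processed intensity was 187 to 270 in WT and 4454 to 5391 in IG27 samples. The group means were -2.19 ± 0.25 for WT and 2.19 ± 0.05 for IG27 cells (SD, *n* = 3 each). They differed by 4.38 on the log2 scale (standard error 0.13), or 20.9-fold. Of the 14898 genes tested, 300 rose by at least this much in IG27 cells, *Gjc1* included. Against WT replicate 2, the only WT array in the same row of the slide as the IG27 arrays, the difference was 4.67.

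*Panx1*, on chromosome 9, encodes the widely expressed pannexin that releases ATP. It read 2.70, 2.68 and 2.71 in WT and 0.51, 0.17 and 0.10 in IG27 replicates 1 to 3. The groups did not overlap, and IG27 samples varied more (SD 0.22) than WT samples (SD 0.02). The log2 difference was -2.44 (standard error 0.11), 5.42-fold lower in IG27 cells, and 348 genes tested had a difference at or below it. Within the slide row it was -2.42. Chromosome 9 as a whole was low in IG27 cells, with a median log2 difference of -0.64 over 813 genes and 71.1% of them called lower, against a median of -0.07 over all genes; the part of this in the *Panx1* value was not tested.

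*Gjb5*, on chromosome 4, is the gene for which the list was made. It read -7.28, -6.80 and -8.12 in WT and -5.03, -5.15 and -5.05 in IG27 replicates 1 to 3. The processed intensity was 3.5 to 9.3 in WT and 30.1 to 33.5 in IG27 samples, so that even the IG27 level was just above the line where detection ends. The probe was well above background on 0 of 3 WT arrays and on both IG27 arrays that carry the flag. With the WT level taken as a bound, *Gjb5* was at least 1.62-fold higher in IG27 cells. The fitted log2 difference of 2.33 (standard error 0.32) rests on WT values below that bound, and became 1.73 within the slide row and 0.44 after normexp background correction with an offset of 50 in the 5 complete arrays.

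*Gja4* (Cx37), the connexin of arterial endothelium, lies near *Gjb5* on chromosome 4. It read -5.05, -5.12 and -5.33 in WT and -5.0, -4.58 and -5.17 in IG27 replicates 1 to 3, and the groups overlapped. It was well above background on all 3 WT arrays and on 1 of the 2 flagged IG27 arrays. The log2 difference was 0.25 (standard error 0.16), and -0.03 after quantile normalization.

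The other 4 genes gave values at the background of the array. For *Gja1*, the main gap junction protein of astrocytes, 3 probes were read, and their group means ran from -7.89 to -6.95 in WT and from -7.67 to -6.44 in IG27 cells. One reading among them, that of a single probe on IG27 replicate 1 at -5.05, was well above background, and the same probe read -6.91 and -7.36 in IG27 replicates 2 and 3. *Gjb6* was read by 2 probes with means between -8.10 and -7.40. *Gjb2*, which lies next to *Gjb6* on chromosome 14, had means of -8.01 ± 0.22 in WT and -7.72 ± 0.16 in IG27 cells (SD, *n* = 3 each). *Panx3*, the pannexin of bone and cartilage, had means of -7.87 ± 0.25 in WT and -7.57 ± 0.16 in IG27 cells (SD, *n* = 3 each). None of these 4 genes has a fold change here, since both groups were at background. A probe at background does not show that the RNA is absent.

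Promoter windows of 6 of the 8 genes were found in the RefSeq table of the GRCm38.p6 build, 250 bases before to 50 after the start of the gene. The windows with the lowest and the highest ratio of observed to expected CpG belong to *Gjb5*, which passed background in IG27 cells only, and to *Panx1*, which was lower there. Both are shown 5′ to 3′ on the strand of the gene, with each CpG in capitals.
*Gjb5*, chr4:127358115-127358414, minus strand: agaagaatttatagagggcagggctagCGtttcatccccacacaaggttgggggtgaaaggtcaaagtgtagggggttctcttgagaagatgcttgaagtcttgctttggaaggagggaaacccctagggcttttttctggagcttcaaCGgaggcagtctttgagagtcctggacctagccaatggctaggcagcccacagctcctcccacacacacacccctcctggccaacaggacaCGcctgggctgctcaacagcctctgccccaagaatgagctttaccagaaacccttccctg
*Panx1*, chr9:15045429-15045728, minus strand: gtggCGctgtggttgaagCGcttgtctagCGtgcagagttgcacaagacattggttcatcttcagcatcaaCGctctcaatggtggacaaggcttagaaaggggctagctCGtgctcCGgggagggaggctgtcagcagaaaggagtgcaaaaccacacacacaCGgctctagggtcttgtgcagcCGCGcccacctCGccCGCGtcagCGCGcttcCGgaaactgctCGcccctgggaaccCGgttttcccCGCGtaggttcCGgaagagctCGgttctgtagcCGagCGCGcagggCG

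The *Gjb5* window held 3 CpG, an observed over expected ratio of 0.14 that is higher than 18.7% of 32851 windows of the table, and the *Panx1* window held 25, a ratio of 0.89 that is higher than 86.4%. The ratio was 0.25 for *Gjb6*, 0.54 for *Gja1*, 0.56 for *Gja4* and 0.76 for *Gjb2*, against a median of 0.38 over all windows. By count, the *Gjb2* window held the most CpG of the 6, 27. Motifs were searched on both strands, and none of them contains another. The *Gjb5* window held TATAAA, the letters of a TATA box, once, as 13.6% of all windows do at least once. That match began at base 8 of the window, at its upstream end, on the strand opposite the gene. The *Gjb5* window also held CACCC, the core that Klf factors bind, at 2 places (57.5% of all windows held it). CACCC was found at 7 places in the *Gjb2* window and at 1 in that of *Gjb6*. The *Panx1* window held none of the motifs searched. Of the 6 windows, TGANTCA, a form of the AP-1 motif (7.81% of all windows), was found in that of *Gja1* alone, the GC box GGGCGG (35.7%) was found in those of *Gja4* and *Gjb2*, and the E-box CACGTG (7.15%) was found in none. A match is a match of letters and shows no binding.

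Across the 20 connexin and pannexin genes reported here, 8 were well above background on every WT array and 7 on every flagged IG27 array, 6 of them on both. *Gjb5* was so in IG27 cells only, and *Gja4* and *Gjd4* in WT cells only. On no array was any probe above background for 7 genes.

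Of the 12 other connexins and pannexins, 5 were tested, and 2 were called higher (40.0%, against 30.5% of all genes) and 0 lower (against 40.0% of all genes). Their median log2 difference was 0.19, against -0.07 for all genes. *Gjc3* (Cx29), the connexin of myelinating cells, changed most. It read -2.46, -2.79 and -2.49 in WT and 2.07, 2.04 and 2.11 in IG27 replicates 1 to 3, and every IG27 sample was above every WT sample. Its log2 difference was 4.65 (standard error 0.10, adjusted p = 2.71e-07, limma), 25.2-fold, and its second probe gave 5.42. *Gjb1*, a connexin of oligodendrocytes and Schwann cells, was at -2.46 ± 0.27 in WT and -2.87 ± 0.60 in IG27 cells (SD, *n* = 3 each), and its groups overlapped (adjusted p = 0.28, limma).

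*Gja5* (Cx40), of arterial endothelium and atrium, was called higher by 0.27 (standard error 0.08, adjusted p = 0.025, limma), but the call was lost in 9 of 15 other settings, and its second probe, not above background in IG27 cells, gave -0.83. *Gjd3* at -0.42 and *Gjd4* at 0.19 were not called (adjusted p = 0.0696 and 0.505, limma).

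**Figure D2:**
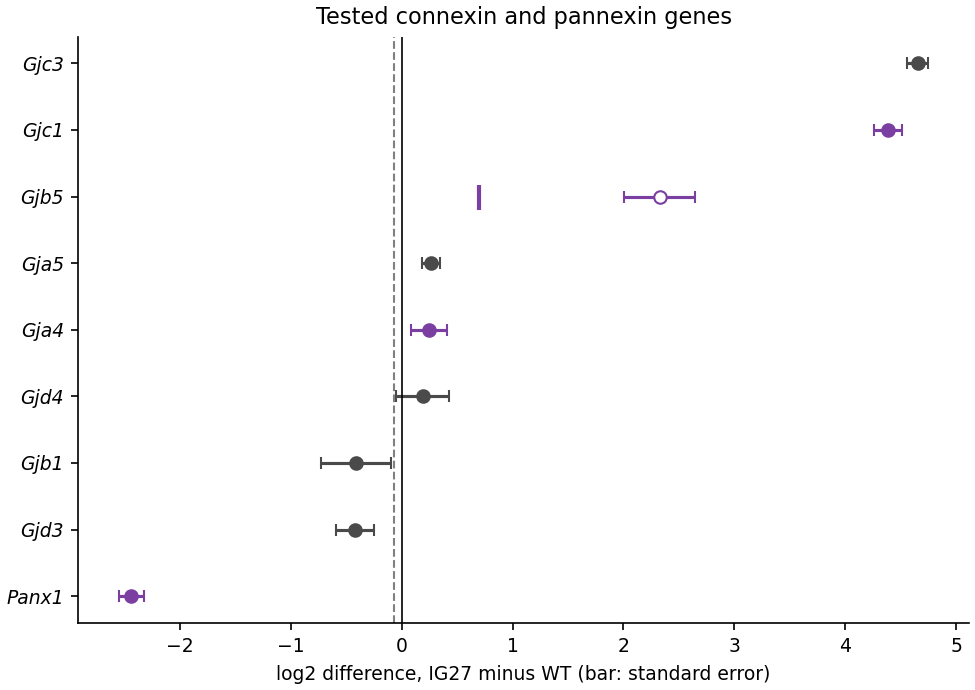
Log2 difference, IG27 minus WT (horizontal axis), of 9 connexin and pannexin genes that were tested, with its standard error; the genes chosen on this contrast are in purple, the others in gray. The open point marks *Gjb5*, not well above background on any WT array, whose lower bound is the vertical tick, and the dashed line is the median of all genes tested. *Gjc3* and *Gjc1* differed by over 4, the bound of *Gjb5* lies below 1, and *Panx1* lies farthest to the left at -2.44.

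Markers of oligodendrocytes, their progenitors and other cell types were read beside these connexins; of all genes, 30.5% were called higher and 40.0% lower. Sums of their levels add probes of unlike brightness and follow the brightest gene. Of 6 progenitor markers, 4 were called higher and 1 lower (limma). *Pdgfra*, *Olig2* and *Olig1* rose by 2.36, 1.51 and 1.48. *Gpr17*, not above background in WT cells, was at least 80.1-fold higher in IG27 cells. *Sox10* fell by 0.37, and *Cspg4*, at 0.61, was not called. The summed level of the progenitor markers was 58.7 to 61.7 in WT and 59.1 to 60.7 in IG27 samples, on a linear scale where the 75th percentile of an array is 1. *Sox10* made up 90.5% to 91.1% of it in WT and 69.3% to 71.9% in IG27 samples. Of 5 oligodendrocyte markers, 1 was called higher and 2 lower, and their summed level was 50.6 to 61.5 in WT and 30.6 to 32.2 in IG27 samples. Of 6 astrocyte markers, 2 were called higher and 3 lower, and the summed level was 95.8 to 105.6 in WT and 55.1 to 63.4 in IG27 samples; *Gfap* was bright in both groups (6.64 and 5.57) and made up 98.7% to 98.9% of the sum in WT and 77.2% to 81.8% in IG27 samples, and *Slc1a3* was at background in WT cells. Of 8 epithelial markers, 2 were called higher and 3 lower, with a summed level of 9.18 to 9.89 in WT and 6.91 to 7.68 in IG27 samples. Of these markers, *Cdh1*, *Krt8* and *Krt18* were above background on no array, while *Epcam* was so in IG27 cells only and *Krt5* and *Krt14* in WT cells only. *Trp63* and *Sfn* were above background on every flagged array of both groups, *Trp63* lower by 0.60 and *Sfn* higher by 0.83 in IG27 cells. *Trp63* made up 92.2% to 92.7% of the epithelial sum in WT and 79.3% to 80.9% in IG27 samples. Of 5 endothelial markers 2 were tested, and *Cdh5*, *Cldn5* and *Tek* were above background on no array. *Kdr*, at background in WT cells, was at least 135-fold higher in IG27 cells. *Pecam1* was lower by 0.27, a call that was lost in 7 of 15 other settings. Of 6 fibroblast and mural markers 1 was called higher and 2 lower, of 5 microglial markers 2 and 2, and of 5 neuronal markers 1 and 1. The part of these markers in the connexin values was not tested.

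Of the genes near *Gja4* and *Gjb5* on chromosome 4, *Dlgap3*, which encodes a postsynaptic scaffold protein, fell by 1.01 (adjusted p = 1.99e-04, limma), and *Csmd2* was at least 1.73-fold lower in IG27 cells, where it was not above background (adjusted p = 1.44e-04, limma). *Tmem35b* rose by 0.82 (adjusted p = 5.84e-04, limma) and *Zscan20* by 0.71 (adjusted p = 1.83e-04, limma). *Zmym6* rose by 0.24 (adjusted p = 0.0107, limma), a call that was lost in 2 of 15 other settings. Genes called higher and genes called lower in IG27 cells thus lay near each other. Chromosome 4 had a median log2 difference of 0.33 over 968 genes tested, with 58.4% called higher, so that calls in this direction were frequent there; the part of this in the values of *Gja4* and *Gjb5* was not tested.

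The nearest 5 protein-coding genes on each side of the 8 genes included 59 other genes reported here, of which 37 were tested, and 10 were called higher (27%, against 30.5% of all genes) and 20 lower (54.1%, against 40.0%), with a median of -0.40. Around *Gja1*, 5 of 6 tested neighbors were called higher, against 41.2% of all genes tested on chromosome 10. Among them was *Fabp7*, the fatty acid binding protein of radial glia. *Fabp7* was at least 110-fold higher in IG27 cells (adjusted p = 1.41e-07, limma) although *Gja1* itself stayed at background. Around *Gjb2* and *Gjb6*, *Cryl1* rose by 2.72 (standard error 0.05) while *Zmym2*, *Zmym5* and *Xpo4* fell by 1.19, 1.15 and 1.04. Around *Gjc1*, the largest differences were falls, of *Fzd2*, a Wnt receptor, by 1.49 and of *Gfap* by 1.07, and the genes directly beside it, *Adam11* and *Higd1b*, were not called (0.29 and -0.16). Around *Panx1*, 5 of 6 tested neighbors were called lower, of which *4931406C07Rik* fell most, by 1.15, and around *Panx3* 3 of 4, among them *Tbrg1* and *Siae* by 1.16 and 1.07; of all genes tested on chromosome 9, 71.1% were called lower. *Panx1*, at -2.44, was lower than any of its tested neighbors.

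*Gjb5* was 1 of 461 genes not above background on any WT array and above it on both flagged IG27 arrays. Their median fitted difference was 3.93, and *Gjb5*, at 2.33, ranked 392 from the largest. The genes closest to it over the 6 arrays, by root mean square difference of log2 values that in WT cells lie below background, were *Hao1*, a peroxisomal oxidase (0.27), *Cracdl* (0.34) and *Ifnlr1*, a receptor chain for interferon lambda (0.36).

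Connexins are held at the membrane and regulated by scaffold proteins, caveolins and kinases. Of 24 such partners, 23 were tested. Of the tested partners, 7 were called higher (30.4%, against 30.5% of all genes) and 13 lower (56.5%, against 40.0%). Their median was -0.40 against -0.07. In this list 2 genes were at background in 1 group and could enter only by differing. A stricter filter, which asked for a clear signal on all 5 complete arrays, left 21 partners. Of these, 6 were higher (28.6%, against 29.2% of all such genes) and 12 lower (57.1%, against 41.6%). *Cav3*, the caveolin of muscle and astrocytes, rose most. It read -4.71, -4.55 and -5.07 in WT and 2.97, 3.0 and 2.99 in IG27 replicates 1 to 3, a log2 difference of 7.76 (standard error 0.13, adjusted p = 1.47e-07, limma). *Cav1*, the general caveolin, was above background in IG27 cells only and at least 1.90-fold higher (adjusted p = 5.32e-06, limma), and *Mapk3*, a kinase of connexin tails, rose by 1.02 (standard error 0.07, adjusted p = 2.46e-05, limma). *Tjp1*, the scaffold that binds *Gja1* and *Gjc1* proteins, rose by 0.56.

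The falls were led by *Ptprm*, an adhesive phosphatase, which was at -3.55 in WT cells and at background in IG27 cells, at least 3.46-fold lower (adjusted p = 8.96e-06, limma). Its other probe was at background in both groups. *Tjp3*, another junction scaffold, fell by 1.82 (standard error 0.09, adjusted p = 6.72e-06, limma), and *Prkca*, a kinase that phosphorylates connexins, by 1.33 (standard error 0.05, adjusted p = 2.53e-06, limma); the second probes of *Tjp3* and *Prkca* gave -1.97 and -1.09. *Cdh2* and *Ctnnb1*, of the adherens junction on which gap junctions form, fell by 0.36 and 0.80.

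ATP that leaves through pannexin channels acts on P2X and P2Y receptors, is cut to adenosine by ectonucleotidases, and then acts on adenosine receptors. Of 24 genes of this path, 16 were tested, and 11 were called higher (68.8%, against 30.5% of all genes) and 2 lower (12.5%, against 40.0%). Their median log2 difference was 0.995, and 0.814 with the genes at background in 1 group set to their bound. Genes at background in 1 group could enter only by differing, so the count was repeated over genes well above background on every complete array, where 6 of 11 were higher (54.5%, against 29.2% of all such genes) and 1 lower (9.1%, against 41.6%).

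*P2ry1*, a receptor for ADP, read -7.70, -7.44 and -8.03 in WT and 0.62, 0.71 and 0.57 in IG27 replicates 1 to 3. It went from background to a clear signal, at least 84.7-fold higher in IG27 cells (adjusted p = 1.60e-07, limma). *Entpd2*, the ectonucleotidase that turns ATP to ADP, was measured in both groups, at -1.02, -0.95 and -0.93 in WT and 5.42, 5.26 and 5.26 in IG27 cells, and rose by 6.28 (standard error 0.06, adjusted p = 5.92e-08, limma). *Adora1*, an adenosine receptor, was at least 29.8-fold higher by its brightest probe (adjusted p = 1.36e-06, limma), but its other 2 probes gave 0.29 and 0.35 with overlapping groups, and the call was lost where only probes well above background on every complete array were used (0.29, adjusted p = 0.442, limma). The probes of *Adora1* thus did not read the same change.

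The receptors that were lower were *P2ry6*, for UDP, at background in IG27 cells and at least 2.28-fold lower (adjusted p = 0.0038, limma), and *P2rx4*, which fell by 0.22 (standard error 0.07, adjusted p = 0.0222, limma), a call that was lost in 7 of 15 other settings. *P2rx7* is the receptor most often tied to *Panx1* opening. Its brightest probe was at 2.64 ± 0.04 in WT and 2.57 ± 0.08 in IG27 cells (SD, *n* = 3 each). The log2 difference was -0.07 (standard error 0.06, adjusted p = 0.33, limma). The other probes of *P2rx7* gave 0.39 and 0.82, and their groups did not overlap. Its probes thus did not read the same change. *Slc17a9*, the transporter that loads ATP into vesicles, rose by 0.51 (adjusted p = 0.0175, limma), but the call was lost in 4 of 15 other settings, as after quantile normalization (0.24, adjusted p = 0.189, limma).

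Other proteins form channels of similar width, and 9 of 14 such genes with a probe were tested. In this list 4 were called higher (44.4%, against 30.5% of all genes) and 5 lower (55.6%, against 40.0%), with a median of -0.38. Here 1 gene was at background in WT cells and could enter only by differing. With the stricter filter, 3 of 8 were higher (37.5%, against 29.2% of all such genes) and 5 lower (62.5%, against 41.6%). *Calhm5*, of the calcium homeostasis modulators, read -7.26, -7.61 and -6.26 in WT and 0.51, 0.65 and 0.61 in IG27 replicates 1 to 3. It was at least 82.1-fold higher (adjusted p = 4.77e-06, limma). *Ttyh2*, of the tweety family, rose by 3.02 (standard error 0.05, adjusted p = 1.36e-07, limma), and its second probe gave 3.53. *Slco2a1*, the prostaglandin transporter and core of a large anion channel, rose by 3.01 (standard error 0.09, adjusted p = 8.42e-07, limma; 1.73 after normexp correction). The volume-regulated anion channel went the other way: of its subunits, *Lrrc8a*, *Lrrc8b*, *Lrrc8c* and *Lrrc8d* fell by 0.50, 0.38, 1.22 and 0.68 (highest adjusted p = 0.00309, limma), and *Lrrc8e* was above background on no array.

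**Figure D3:**
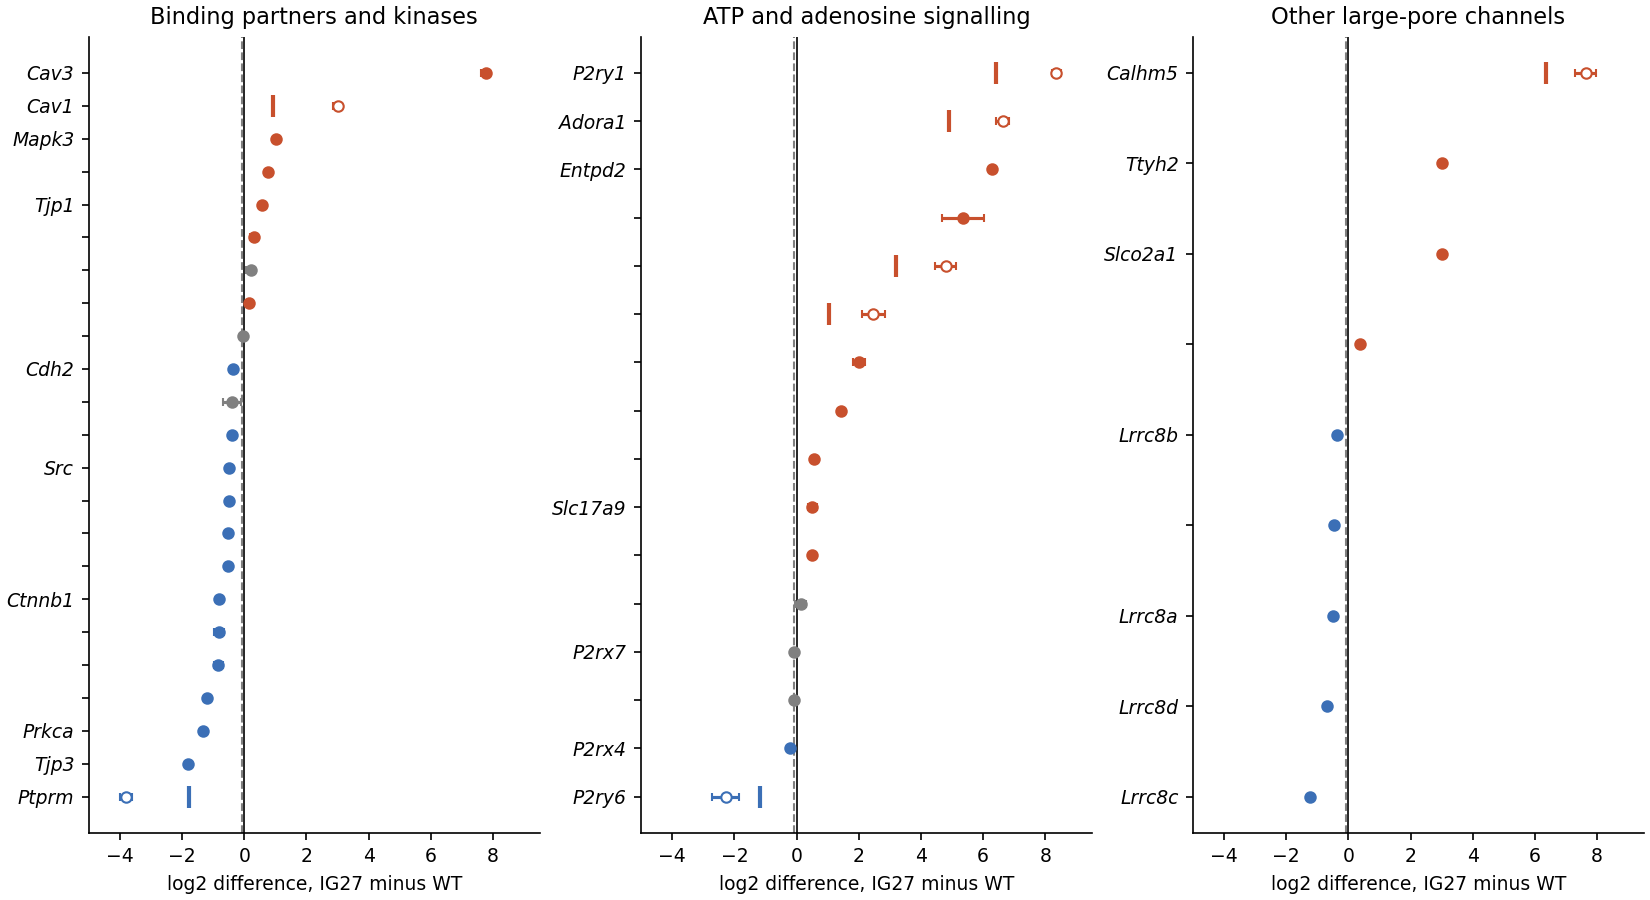
Log2 difference, IG27 minus WT (horizontal axis, bars give the standard error), of tested genes for connexin partners, ATP and adenosine signaling, and other large-pore channels. Called genes are orange where higher and blue where lower in IG27 cells, and uncalled genes gray; open points were above background in 1 group only, with the bound as a tick, and the dashed line is the median of all genes; genes described in the text are labeled. Of the ATP and adenosine genes 11 of 16 were called higher, and with the stricter filter 6 of 11 (against 30.5% and 29.2% of all genes), whereas the 4 *Lrrc8* genes lie to the left.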

How the data were processed

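RNA of 3 WT and 3 IG27 samples was labeled with Cy3 and hybridized to Agilent mouse arrays, all on 1 slide. The deposited files hold the intensity that the authors read with Agilent Feature Extraction (10.7.3.1 per the file headers, 9.1 per the labels), on a linear scale, and a table of the processed intensity. The scanner output of IG27 replicate 2 holds 285 spots, of whose 267 single-spot probes 255 equaled the table (relative tolerance 1e-04), so the table gave this array. In the table, WT replicates 2 and 3 are exchanged relative to the scanner output, whose labels were followed.

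Values are log2 of the processed intensity, less each array's 75th percentile; control and outlier spots (107 to 210 per complete array) were left out. No spot was saturated. Accessions named 32994 probes through the RefSeq table of GRCm38.p6, used for names, chromosome and order only, since the array's own build is mm9. Each gene was represented by its brightest probe, and it was tested if, in 1 group or both, every complete array had it well above background. Differences were tested with limma 3.58.1 under R 4.3.3 (two-sided moderated test without a block; Benjamini-Hochberg adjustment over all genes, threshold 0.05), after a check on simulated data. Where a group was above background on no array, "at least" compares the brighter group's mean with a floor averaged over the dim group's arrays, where an array's floor is its lowest value well above background, or the probe's own value if greater (for IG27 replicate 2, the higher such floor of the complete IG27 arrays). The number of arrays limits the precision.

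The 8 genes, the gene lists (other family genes, partners, ATP and adenosine signaling, large-pore channels, cell type markers) and the tests were chosen with earlier results of these data known. Named were all 8 genes, the tested genes of the family, the 3 largest rises and falls of each list among called genes without overlap, called neighbors with a difference of at least 1, and the 3 genes closest to *Gjb5*; other genes were picked after their values were seen. Some genes of these sets are not reported here and were left out of the counts over lists and neighbors, though not out of the fit. Alternatives were another scaling, background correction, filter, probe rule, variance prior, threshold, blocks, and leaving out arrays. Normexp was run on median signals, with an offset of 50, in the 5 complete arrays.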

Additional observations from a re-analysis of the deposited data

How the results depend on the processing

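Under 16 distinct alternative settings (leaving out IG27 replicate 2 is the fit of the 5 complete arrays), between 8946 genes (slide row as a block) and 10855 genes (unadjusted p at or under 0.05, the methods' threshold) were called, and the replicate block gave 10309. The replicate numbers do not pair the samples: the correlations of deviations between same-numbered samples were 0.01, 0.04 and 0.08. *Gjc1* ranged from 4.07 to 4.67, *Panx1* from -2.56 to -2.30, *Gjb5* from 0.44 (normexp) to 2.63 and *Gja4* from -0.03 to 0.37; the slide row as a block gave 1.73 for *Gjb5*. Of the 8 genes, the count called higher went from 2 to 1 with probes well above background on every complete array, since *Gjb5* then could not be tested. The other family genes had 1 called higher in place of 2 after quantile normalization and normexp, without the filter, with the variance trend, in the 5 complete arrays and with the slide row as a block (1 to 2 when single arrays were left out), as *Gja5* lost its call. They had 1 called lower, *Gjd3*, in place of 0 after quantile normalization and with the replicate block, and 0 to 1 when single arrays were left out. For ATP and adenosine signaling, the count higher fell from 11 to 6 with the stricter filter, and the count lower from 2 to 1 with that filter, the 5 complete arrays and the slide row as a block (1 to 2 when single arrays were left out). Averaging all probes of a gene turned the sign of *Src* and *Mbp*, to 0.0571 and -0.21, as their probes differ in direction. Of 1880 values for 127 genes, 1799 kept their direction and their side of the threshold, or moved less than the spread between replicates; 57 lost and 17 gained a call, with the cause not tested. Probes near background limit the differences of *Gjb5* and *Gja4*, and 8 of 20 family genes cleared background on every WT array.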
